A study of Mus musculus and Rattus norvegicus with 30 samples.

Results

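Agonist 915 was examined in cultured ventricular myocytes of newborn rats, muscle cells that beat in the dish, which had been given a scrambled siRNA, which targets no gene. The comparison holds 6 of the 30 libraries of the series, chosen by their labels: 3 from cells given 915 at 10 µM for 24 hours and 3 from cells given an equal volume of DMSO. The cells of both groups came from pups of 3 days, had been left on plastic so that fibroblasts would settle out, were grown with bromodeoxyuridine, which holds back dividing cells, and received 25 nM of the scrambled siRNA. Another 6 rat libraries, 3 with 915 and 3 with DMSO, came from myocytes with siRNA against ERR alpha and ERR gamma; they share the fit and are used only to test where the response to 915 differed. In vehicle cells Esrra averaged 182 CPM with the scrambled siRNA and 17.3 CPM with the knockdown, and Esrrg 131 and 18.1 CPM. Whether replicate libraries stem from different cell preparations or only different wells is not stated in the labels, so the p-values measure the spread between these libraries, which may be technical.

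ERR alpha, ERR beta and ERR gamma, encoded by Esrra, Esrrb and Esrrg, are the estrogen-related receptors, a branch of the nuclear receptors with no known natural hormone. They sit on the promoters and enhancers of genes for mitochondrial respiration, substrate oxidation and, in the heart, contraction, and recruit coactivators of the PGC-1 family to them. In heart muscle they take part in the change after birth from glycolysis and cell division to oxidative metabolism and adult contractile proteins, and neonatal myocytes in culture are a model of cells partway through that change. The submitters describe 915 as an agonist of all 3 receptors, and only its code name is used here.

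The libraries held 15711947 to 18315341 counts, and 15181 of 32545 genes were counted often enough to be tested. Levels are given in CPM (counts scaled to library size, with TMM factors), effects as log2 changes of 915 against vehicle with their standard error (SE), and a gene is said to rise or fall where edgeR's quasi-likelihood test gave an adjusted p below 0.05. No library stood apart over all genes: over the 11125 genes that averaged 5 CPM or more, a library lay more than 1.5-fold above both others of its group for 23 to 51 genes and below both for 32 to 40. Myocyte markers were abundant: Tnnt2 (cardiac troponin T) lay between 3051 and 3597 CPM over the 6 libraries. The summed level of 11 cardiomyocyte markers ran from 17566 to 19617 CPM with vehicle and from 24513 to 25531 CPM with 915, groups that do not overlap. Of the 11, 5 rose and 2 fell, with a median log2 change of 0.22. Actc1 (cardiac actin), which rose, had the most counts of the 11 and weighs most in the sum. All 11 are also in the contractile, Z disc, calcium handling or natriuretic lists below, so this sum and those lists are not separate evidence. Markers of other cell types were counted as well. The summed level of 12 fibroblast markers ran from 13896 to 14965 CPM with vehicle and from 7680.1 to 8449.6 CPM with 915, and that of 12 smooth muscle and pericyte markers from 5761 to 6074 and from 2455 to 2941 CPM. The 9 endothelial markers tested summed to 62.7 to 71.7 and 52.7 to 59.9 CPM, the 8 leukocyte markers to 41.2 to 43.0 and 48.6 to 51.0 CPM, the 12 epicardial and mesothelial markers to 361 to 371 and 351 to 469 CPM and the 10 Schwann and neuronal markers to 91.7 to 99.2 and 74.0 to 80.1 CPM. The 2 red cell markers tested summed to 4.89 to 6.05 CPM with vehicle and 3.64 to 5.23 CPM with 915. Cldn5 (endothelium), Cd3e (T cells) and Hbb-b1 (red cells) had no count in any of the 6 libraries. Other markers of endothelium and red cells did have counts, so these single genes do not show that a cell type was absent.

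The response was broad and mostly small. Of all genes tested 42.2% were called in 1 direction or the other, 21.5% higher and 20.6% lower, and these shares are the background for every group of genes below. The median log2 change over all genes was 0.01, and 65.3% of called genes changed by less than 1.5-fold. Large changes were more often falls: 4.49% of genes fell and 1.4% rose at least 2-fold. The CPM ranges of the 2 groups did not overlap for 52.9% of genes. Falls beyond 2-fold outnumbered such rises in every range of level, with 97 falls and 23 rises among the 2429 genes at 100 CPM or more.

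**Figure D1:**
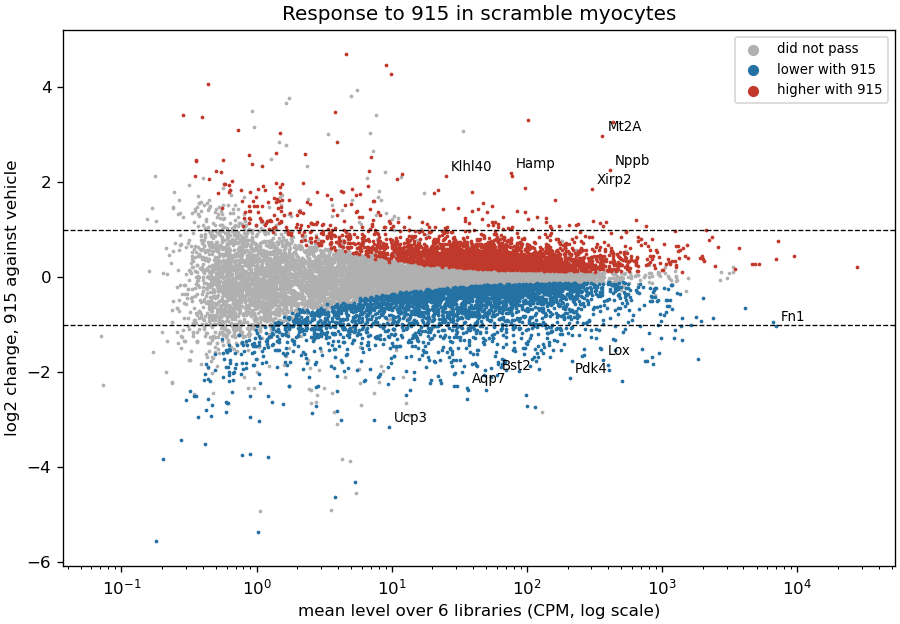
Log2 change of 915 against vehicle in scramble myocytes (vertical axis) against the mean level over the 6 libraries in CPM (horizontal axis, log scale), 1 point per gene tested, coloured by the edgeR call. Named points are genes described in the text. Of the genes tested 212 genes rose and 682 fell at least 2-fold, beyond the dashed lines.

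Among genes that averaged 5 CPM or more and whose groups did not overlap, the 15 largest rises included Hamp, Klhl40, Lcn2 and Lrrc2. Hamp, which encodes hepcidin, a regulator of iron (ENSRNOG00000021029, chromosome 1, 89368021 to 89369960 in rn6), stood at 29.7, 22.4 and 30.4 CPM with vehicle and at 120.3, 138 and 116 CPM with 915, a log2 change of 2.18 (SE 0.10) with an adjusted p of 4.77e-13 by edgeR. Klhl40, a muscle adaptor of a ubiquitin ligase that protects thin filament proteins (ENSRNOG00000019390, chromosome 8, 130416355 to 130421871), went from 9.70, 7.92 and 10.6 to 45.3, 44.4 and 33.1 CPM (log2 change 2.12, SE 0.13). In both genes every library with 915 lay above every vehicle library by more than the spread within a group. Lcn2, a carrier of iron-binding siderophores, gave 42.8, 38.2 and 42.3 and 143, 151 and 159 CPM (log2 change 1.88, SE 0.08). Lrrc2, a mitochondria-linked repeat protein of heart muscle, gave 18.4, 16.5 and 17.7 and 55.6, 61.7 and 64.1 CPM (log2 change 1.79, SE 0.11). At lower levels Cdh17, a cadherin, rose by 2.17 (log2, SE 0.19), Nmrk2, a muscle enzyme of NAD synthesis, by 2.06 (SE 0.23), Dusp2, a phosphatase of MAP kinases, by 1.92 (SE 0.23) and Gstk1, a glutathione transferase of mitochondria and peroxisomes, by 1.84 (SE 0.12). The metallothionein Mt2A lay between 623 and 665 CPM with 915 and between 76.6 and 86.5 CPM with vehicle.

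By the same limits of level and overlap, the 15 largest falls included Aqp7, Gdf6, Cthrc1, Lurap1l, Myh1, Cd200 and Itga4. Aqp7, a channel that lets glycerol cross the membrane (ENSRNOG00000009686, chromosome 5, 57358327 to 57372239), went from 62.1, 55.7 and 62.2 to 10.4, 14.3 and 10.9 CPM (log2 change -2.34, SE 0.14). No library of 1 group reached the range of the other. Gdf6, a bone morphogenetic protein, changed by -2.38 (log2, SE 0.14), Cthrc1, a secreted collagen triple helix protein, by -2.30 (SE 0.24), Lurap1l by -2.26 (SE 0.18) and Myh1, a fast skeletal myosin, by -2.38 (SE 0.14). Cd200, a surface protein that quiets macrophages, changed by -2.22 (log2, SE 0.14) and Itga4, the alpha-4 integrin, by -2.24 (SE 0.21). Measured by CPM and not by fold, the losses were headed by Fn1, Col1a1 and Eln. Fn1, which encodes fibronectin, stood at 8844, 9941 and 9285 CPM with vehicle and 4964, 4313 and 4414 CPM with 915.

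The receptors themselves differed in how they responded. By the authors' FPKM, which divides by gene length, Esrra was the most abundant of the 3 in vehicle cells at a mean of 83.7 FPKM, followed by Esrrg at 24.3 and Esrrb at 2.72. Esrrg (ENSRNOG00000002593, chromosome 13, 106463368 to 106683436) rose from 131, 130.3 and 131 to 263, 273 and 302 CPM (log2 change 1.10, SE 0.09), and Esrrb, at 3.29, 3.01 and 4.43 and 5.68, 6.17 and 6.97 CPM, by 0.81 (SE 0.24). Esrra gave 199, 178 and 169 CPM with vehicle and 227, 228 and 229 CPM with 915, ranges that do not overlap, yet its log2 difference of 0.32 (SE 0.14) missed the threshold (adjusted p = 0.0979 by edgeR). In the fit of the 6 scramble libraries alone the same gene passed (adjusted p = 5.87e-05). Of 20 receptors, coactivators and partner factors, 8 rose and 1 fell.

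Among the partners, Nr0b2, a corepressor that binds ERRs and other nuclear receptors, rose from 3.94, 4.78 and 4.63 to 12.2, 9.58 and 12.7 CPM (log2 change 1.37, SE 0.25). Perm1, a muscle regulator that acts with PGC-1, rose from 103, 104 and 104 to 195, 179 and 214 CPM (log2 change 0.92, SE 0.06), Ppara, the fatty acid receptor, by 0.96 (SE 0.11) and the coactivator gene Ppargc1b by 0.60 (SE 0.10). Nrf1, a nuclear factor for respiratory genes, and Tfam, which packs and reads mitochondrial DNA, rose by 0.40 (log2, SE 0.08) and 0.38 (SE 0.07). Ppargc1a, the coactivator gene most often tied to ERR action, held 24.7, 20.5 and 25.0 CPM with vehicle and 22.2, 23.7 and 26.4 CPM with 915 and did not pass (log2 change 0.04, SE 0.10, adjusted p = 0.771). Ncor1, Nrip1, Pprc1, Ppard, Rxra, Gabpa, Mef2a, Mef2c and Mef2d did not pass either, with log2 differences from -0.11 to 0.19.

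Most genes of the respiratory chain rose, by small amounts. Complex I had 26 of 30 tested nuclear subunits higher (median log2 change 0.32), complex II 3 of 4 (0.20), complex III with cytochrome c 8 of 9 (0.32), complex IV 13 of 14 (0.40) and the ATP synthase 12 of 16 (0.44). None of these subunits fell, by edgeR or by DESeq2, and none had a lower level at an unadjusted p below 0.05. The summed cardiomyocyte markers, in which Actc1 weighs most, were higher with 915 in the same libraries (17566 to 19617 against 24513 to 25531 CPM). Their part in this result was not tested. Of the members that passed, those with the largest rise were Ndufs7 of complex I at 0.63 (log2, SE 0.05), Uqcrh of complex III at 0.60 (SE 0.06), the muscle subunit Cox6a2 of complex IV at 0.84 (SE 0.07) and the ATP synthase inhibitor Atpif1 at 0.67 (SE 0.06). Cox6a2 stood at 524, 428 and 482 CPM with vehicle and 851, 836 and 878 CPM with 915. Vehicle replicate 2 was the lowest vehicle library for Cox6a2, and for none of the complex I, II, III or IV subunits or the ATP synthase subunits was it the highest.

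The transcripts of the mitochondrial genome took 6.02%, 5.65% and 6.71% of all counts with vehicle and 7.51%, 7.66% and 7.77% with 915. The groups do not overlap, and 3 libraries against 3 cannot go below an exact two-sided permutation p of 0.1, which is the value found. Of the 13 protein-coding genes 11 rose (median 0.37) and none fell, but 7 rose in the fit without vehicle replicate 2, the lowest library. Mt-nd5 rose by 0.61 (SE 0.10), and Mt-co1, the most counted gene of the table, went from 25558, 23746 and 27732 to 28831, 30303 and 30355 CPM (log2 change 0.22, SE 0.07). Mt-co1 did not pass without vehicle replicate 2 (adjusted p = 0.0901) or without replicate 3 of 915 (0.0517). Poly(A) selection captures these RNAs unevenly, so their levels cannot be set beside those of nuclear genes.

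The machinery that builds mitochondria followed. Of 62 mitochondrial ribosomal proteins 54 rose and none fell (median 0.40), with Mrpl47 at 0.81 (log2, SE 0.10) and Mrps18b at 0.76 (SE 0.06). Of 29 genes of protein import and quality control 24 rose and 1 fell (Spg7, an inner-membrane protease). The rises included the import pore Tomm40 at 0.57 (log2, SE 0.06) and the chaperone Hspa9 at 0.44 (SE 0.05). In the synthesis of coenzyme Q, heme and iron-sulfur clusters 17 of 30 genes rose and none fell. The 1 member that rose at least 2-fold was Nfs1, a cysteine desulfurase, at 0.235, 0.0655 and 0.717 CPM with vehicle and 0.330, 13.8 and 12.4 CPM with 915 (log2 change 4.69, SE 1.198, adjusted p = 0.0128 by edgeR). It did not pass with the 6 scramble libraries alone (adjusted p = 0.088). Its groups overlap, since the first library with 915 lies within the range of the vehicle libraries. The other rises include the mitochondrial iron importer Slc25a37 (11.4, 14.9 and 12.4 against 25.6, 23.8 and 24.9 CPM, log2 change 0.94, SE 0.11). Slc25a5, an ATP and ADP exchanger of the inner membrane, rose by 0.67 (log2, SE 0.05) and the creatine importer Slc6a8 by 0.93 (SE 0.05), from 302, 281 and 276 to 549, 544 and 542 CPM. The myoglobin gene Mb, at 573, 519 and 533 and 439, 486 and 418 CPM, did not pass (log2 change -0.28, SE 0.11, adjusted p = 0.0611).

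**Figure D2:**
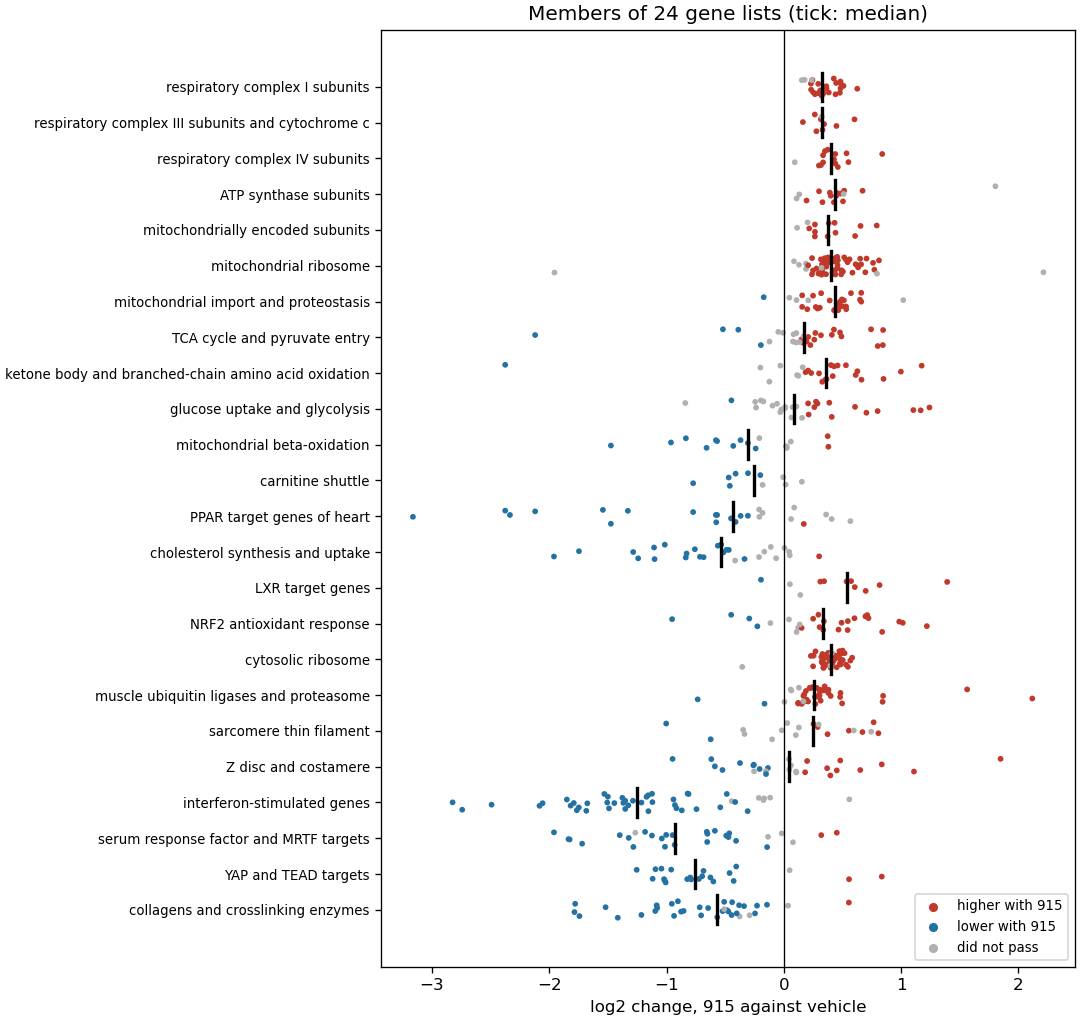
Log2 change of 915 against vehicle for each tested member of 24 gene lists (points, coloured by the edgeR call) with the list's median (vertical tick). The medians of the respiratory chain, mitochondrial ribosome and cytosolic ribosome lists lie to the right of 0 and those of the interferon, serum response factor, YAP and collagen lists to the left.

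In the TCA cycle with pyruvate entry 16 of 29 genes rose and 4 fell, among them Idh2 at 0.49 (log2, SE 0.05). The pyruvate carrier Mpc1 rose from 85.7, 81.6 and 98.5 to 143, 165 and 169.5 CPM (log2 change 0.84, SE 0.10), Pdp1, which switches pyruvate dehydrogenase on, from 47.2, 43.8 and 54.1 to 86.5, 83.2 and 91.3 CPM (log2 change 0.85, SE 0.08), and pyruvate carboxylase (Pc) by 0.80 (SE 0.07). Pdhb and Pdhx of pyruvate dehydrogenase rose by 0.23 and 0.43 on the log2 scale, while Dlat, Dld, Mpc2, Pdp2 and Pdpr did not pass, with log2 differences from -0.12 to 0.17. Pdk4, which switches the same enzyme off, fell from 359.5, 303 and 347 to 79.9, 82.8 and 69.7 CPM (log2 change -2.12, SE 0.09). Of the other kinases of this kind Pdk3 had a log2 change of -0.52, Pdk1 of 0.32 and Pdk2 of 0.48, and all 3 passed. Glucose transporter genes Slc2a4 and Slc2a1 rose by 1.17 (log2, SE 0.08) and 1.10 (SE 0.05) and hexokinase 2 (Hk2) by 1.24 (SE 0.05), while of the 30 genes of glucose uptake and glycolysis 13 rose and 1 fell (Aldoc, an aldolase). Slc2a4, the insulin-responsive transporter, went from 38.7, 34.0 and 34.4 to 73.0, 81.4 and 86.1 CPM. Use of ketone bodies and branched-chain amino acids had 19 of 26 genes higher and 1 lower, with Oxct1 at 1.18 (log2, SE 0.05), Acadsb at 1.00 (SE 0.15) and Bdh1 at 0.85 (SE 0.08).

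Genes that answer to the fatty acid receptors (PPARs) fell instead. Of 24 tested PPAR targets 15 fell, 7 of them at least 2-fold, and 1 rose, Plin4 of lipid droplets (median -0.43). Some members are also in the beta-oxidation list below, such as Decr1, or in the carnitine shuttle list, such as Cpt1a and Slc25a20. The counts of those lists are therefore not separate evidence. Angptl4, a secreted inhibitor of lipoprotein lipase (ENSRNOG00000007545, chromosome 7, 18627808 to 18634079), stood at 664, 683 and 668 CPM with vehicle and 241, 239.7 and 211 CPM with 915 (log2 change -1.54, SE 0.05). Ucp2, an inner-membrane carrier, went from 643, 620.1 and 655 to 246, 283 and 234 CPM (log2 change -1.33, SE 0.06), and its relative Ucp3 changed by -3.16 (SE 0.23). Both Angptl4 and Ucp2 were tight within a group and more than 2-fold apart between groups. Lipe, the hormone-sensitive lipase, went from 49.1, 44.9 and 46.5 to 11.2, 13.2 and 10.4 CPM (log2 change -2.02, SE 0.09), whereas Dgat2 of triglyceride synthesis rose by 0.72 (SE 0.11) and Fabp5, a fatty acid binding protein, by 1.25 (SE 0.08). In mitochondrial beta-oxidation 10 of 17 genes fell and 2 rose (median -0.31), with Decr1 at -1.47 (log2, SE 0.07) and Hadh at -0.96 (SE 0.09). The carnitine shuttle, which carries long-chain fatty acids into mitochondria, had 6 of 10 genes lower and none higher by edgeR or DESeq2. Cpt1a, Cpt1c, Crat, Slc25a20, Cpt2 and Mlycd fell by 0.77, 0.47, 0.46, 0.41, 0.31 and 0.20 on the log2 scale. The muscle-type Cpt1b, at 433, 393 and 436 and 465, 463 and 475 CPM, had a positive difference of 0.15 (log2, SE 0.07) (adjusted p = 0.0928) and is the 1 member higher at an unadjusted p below 0.05.

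**Figure D3:**
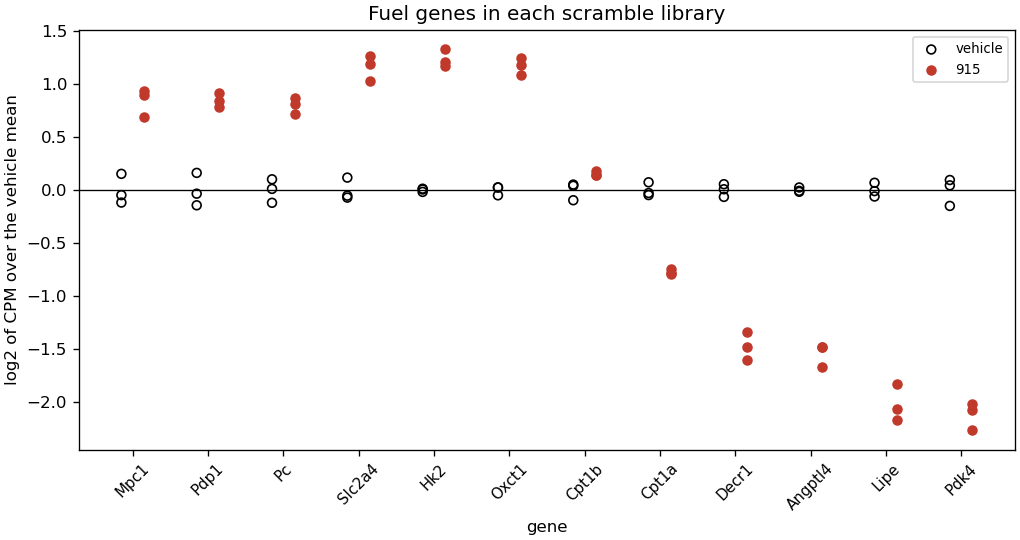
Level of 12 fuel genes in each scramble library, as log2 of CPM over the mean of the 3 vehicle libraries (vertical axis), for vehicle (open circles) and 915 (filled circles). The 2 groups do not overlap for any of the 12 genes; Cpt1b did not pass the test.

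The contractile apparatus changed in parts. Cardiac and skeletal alpha-actins rose, Actc1 from 5424, 4930.4 and 5542 to 9142, 8816 and 9068 CPM (log2 change 0.77, SE 0.07) and Acta1 from 512, 464 and 543 to 921, 813 and 922 CPM (log2 change 0.81, SE 0.07), while Acta2, the smooth muscle actin, fell from 1703, 1792 and 1715 to 796, 678 and 667 CPM (log2 change -1.28, SE 0.07). Tropomyosins went apart as well, Tpm2 falling by 1.00 (SE 0.07) on the log2 scale and Tpm1, the main cardiac form, not passing (log2 difference -0.02, adjusted p = 0.822). In the thin filament 7 of 19 genes rose and 2 fell, in the thick filament and M band 9 rose and 3 fell of 20. Tnni3, the adult troponin I, rose by 0.67 (SE 0.14) and Mybpc3, myosin-binding protein C, from 2157, 1889 and 1988 to 3108, 3109 and 3173 CPM (log2 change 0.64, SE 0.08). The alpha and beta myosin heavy chains Myh6 and Myh7 did not pass, at 1671, 1595 and 1676 against 1335, 1213 and 1455 CPM and 2821, 2549 and 2776 against 2511, 2771 and 2568 CPM.

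At the Z disc, where thin filaments are anchored, 10 of 27 genes rose and 10 fell. Xirp2, an actin-binding protein of the Z disc (ENSRNOG00000034258, chromosome 3, 53563194 to 53658132), rose from 129.5, 129.8 and 135 to 479.6, 458 and 483 CPM (log2 change 1.85, SE 0.07), and Csrp3, a stretch sensor, from 162, 142 and 150.0 to 378, 338 and 264 CPM (log2 change 1.11, SE 0.20). Csrp3 was spread more widely with 915 than with vehicle, though its lowest library with 915 still lay above all vehicle libraries. Ankrd1, a stress-responsive partner of titin, rose by 0.83 (log2, SE 0.06) to 2923, 2986 and 3034 CPM. Pdlim7 fell by 0.95 (SE 0.06) on the log2 scale. Of 24 heat shock and chaperone genes 16 rose and 2 fell. Among the small heat shock genes Hspb8, Hspb7, Hspb6, Cryab and Hspb1 rose by 1.15, 0.96, 0.86, 0.40 and 0.21 on the log2 scale, and Hspb2 and Hspb3 did not pass, at 0.22 and -0.23. Rises were also seen in the ubiquitin ligases Trim50 (25.5, 24.9 and 20.9 against 70.3, 68.8 and 71.9 CPM, log2 change 1.56, SE 0.10), Trim54 (log2 change 0.85, SE 0.10) and Trim63 (log2 change 0.84, SE 0.06). The list of ubiquitin ligases and the proteasome had 37 of 44 members higher and 2 lower.

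Calcium handling leaned down, with 12 of 25 genes lower and 7 higher. Casq2, which stores calcium in the sarcoplasmic reticulum, fell by 0.65 (SE 0.06) on the log2 scale, Pln, the brake on the calcium pump, rose by 0.45 (SE 0.07), and the pump Atp2a2 at 3192, 2884 and 3123 and 3101, 3251 and 3354 CPM did not pass (adjusted p = 0.331). Among channels and connexins Hcn4, a pacemaker channel of immature and nodal cells, went from 321, 282 and 294 to 173, 185 and 163 CPM (log2 change -0.79, SE 0.07). Kcnj2 fell by 1.13 (SE 0.12) on the log2 scale, while Kcnq1 rose by 0.78 (SE 0.11) and the gap junction gene Gja1 by 0.44 (SE 0.06). Of 28 cardiac transcription factors 10 rose and 9 fell. Nr2f2, a factor of atrial and venous identity, went from 61.3, 69.6 and 67.3 to 20.6, 17.2 and 17.1 CPM (log2 change -1.86, SE 0.09) and Hopx, a regulator of myocyte maturation, from 47.7, 42.0 and 43.0 to 83.4, 95.4 and 90.4 CPM (log2 change 1.02, SE 0.08).

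Hormone and load signals moved in both directions. Edn1, the endothelin-1 gene (ENSRNOG00000014361, chromosome 17, 22137324 to 22143324), stood at 17.9, 15.4 and 16.5 CPM with vehicle and 4.23, 3.82 and 3.46 CPM with 915 (log2 change -2.12, SE 0.15), and its receptor gene Ednra changed by -0.93 (SE 0.07). Npr3, the receptor that clears natriuretic peptides, went from 86.4, 92.9 and 83.8 to 21.7, 18.9 and 21.0 CPM (log2 change -2.09, SE 0.10), while the peptide gene Nppb rose from 150.1, 125 and 153 to 679, 629.6 and 717 CPM (log2 change 2.24, SE 0.15) and Nppa by 0.68 (SE 0.12). None of these 5 genes had overlapping groups. Agtr1a, the angiotensin receptor, fell by 1.79 (SE 0.12) on the log2 scale and Rgs4, which shortens G protein signals, by 1.47 (SE 0.10) on the log2 scale. Of 28 natriuretic and hypertrophic stress genes 12 rose and 11 fell, and of 27 genes of adrenergic and endothelin signalling 5 rose and 12 fell. The stress list shares members with the lists above, such as Xirp2, Ankrd1 and Csrp3 of the Z disc and Acta1 of the thin filament.

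The interferon-stimulated genes, which respond to virus and to interferon itself, moved as a block. Of 46 tested, 40 fell, 29 of them at least 2-fold, and none rose (median -1.25), by edgeR or DESeq2 and with no member higher at an unadjusted p below 0.05. Bst2, which tethers budding viruses (ENSRNOG00000059900, chromosome 16, 19938784 to 19942353), stood at 96.9, 107 and 85.8 CPM with vehicle and at 19.7, 28.7 and 21.0 CPM with 915 (log2 change -2.06, SE 0.13). Irf7, the factor that amplifies interferon genes, went from 491, 651 and 421 to 169, 226 and 155 CPM (log2 change -1.51, SE 0.18). In both genes the groups do not overlap, although replicate 2 is the highest library of each group. Isg15, a ubiquitin-like modifier, changed by -1.35 (log2, SE 0.24), Psmb9 of the immunoproteasome by -1.38 (SE 0.12), the RNA-activated kinase Eif2ak2 by -1.17 (SE 0.08) and B2m, the light chain of class I histocompatibility molecules, by -0.87 (SE 0.06). Vehicle replicate 2 had the highest vehicle level for 45 of the 46 genes, and replicate 2 with 915 the highest level with 915 for 41. Without vehicle replicate 2 the count of falls was 40, and it ran from 40 to 41 over the fits that each left out 1 library. Rsad2, Cxcl10 and Oasl did not pass, with log2 differences of -0.44, -0.17 and -0.17. Leukocyte markers, summed, were at 51 CPM or less in every library, and their part in this result was not tested.

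**Figure D4:**
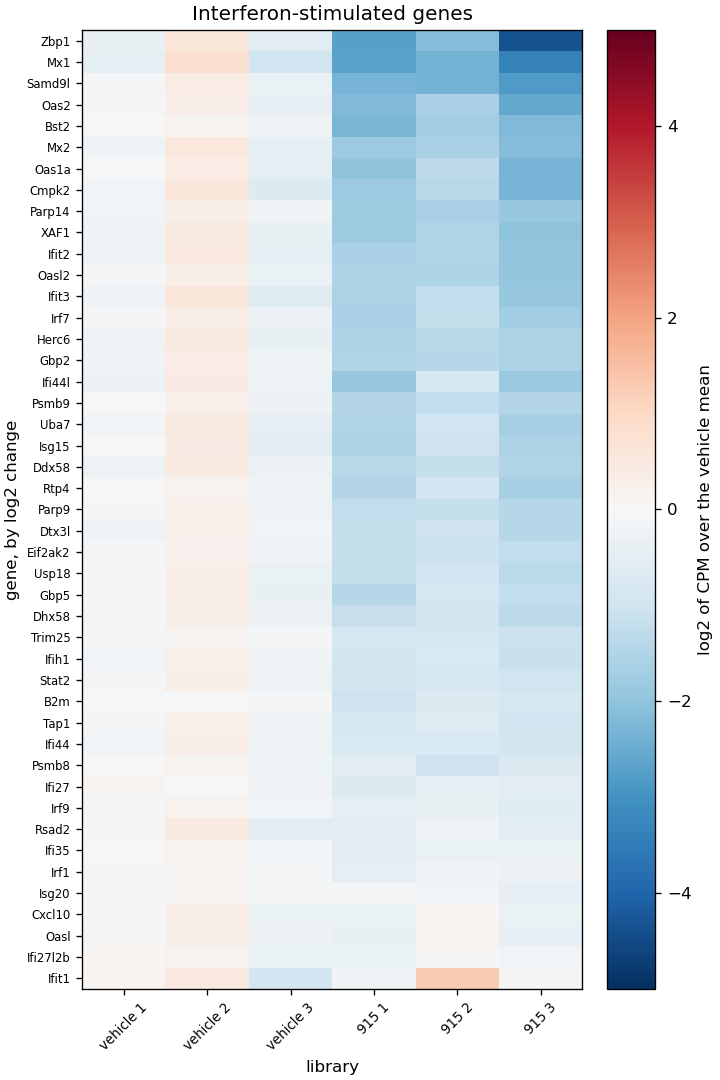
Level of 45 of the 46 tested interferon-stimulated genes in the 6 scramble libraries, as log2 of CPM over the mean of the 3 vehicle libraries (colour), with genes in rows by log2 change. Over all 46 genes, the 915 libraries all lie below the vehicle libraries for 41, and vehicle replicate 2 is the highest vehicle library for 45.

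In a list of targets of serum response factor (SRF) and its actin-sensing partners, the MRTFs, 23 of 29 genes fell and 2 rose (median -0.93). The highest log2 change in this list was 0.45, so the alpha-actin genes Actc1 and Acta1, which rose by more, are not in it. The count is of this list and not of all SRF targets. Cald1, caldesmon of smooth muscle and the cytoskeleton, went from 1272, 1388 and 1342 to 428, 347 and 346 CPM (log2 change -1.84, SE 0.10), Mylk, the kinase of smooth muscle myosin, from 159, 179.7 and 166 to 58.4, 46.7 and 48.5 CPM (log2 change -1.72, SE 0.08) and Tagln from 1961, 2056 and 1989.5 to 921, 742 and 739 CPM (log2 change -1.32, SE 0.09). Each library with 915 lay below each vehicle library for these genes, and the first replicate with 915 was the highest of its group. Cytoskeletal Actb fell by 1.01 (SE 0.07) on the log2 scale and Flna by 0.93 (SE 0.06) on the log2 scale. The members that rose were Des, the intermediate filament of muscle, and Fhl1, a sarcomeric LIM protein. Srf itself did not pass (259.7, 263 and 267 against 283, 269 and 281 CPM, adjusted p = 0.312). The summed smooth muscle and fibroblast markers given above were lower with 915, and Acta2, Lmod1, Myh11, Tagln and Cnn1 are in both the SRF list and the smooth muscle markers, so the sum is not separate evidence. In bulk RNA fewer cells of a type and less RNA per cell cannot be told apart, and the part of these cells in the result was not tested.

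Targets of YAP and TEAD, which read cell shape and tension, fell in 19 of 22 cases (median -0.76). Cyr61, a matrix signal, went from 396, 442 and 431 to 193, 172 and 167 CPM (log2 change -1.25, SE 0.06), Amotl2 from 435, 448 and 439 to 198, 219 and 202 CPM (log2 change -1.09, SE 0.05) and Ctgf by -1.02 (SE 0.09) on the log2 scale. Ankrd1 and Nt5e were the 2 members that rose. Genes of the extracellular matrix also fell. Of 35 collagens and crosslinking enzymes 30 fell and 1 rose (Loxl4). Of 43 matricellular proteins and proteoglycans 30 fell and 3 rose (Lama5, Spp1 and Dcn), and of 18 integrins 13 fell and 2 rose (Itga9 and Itgb8).

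Enzymes that shape collagen fell too. Lox (ENSRNOG00000014426, chromosome 18, 47500330 to 47577819), which crosslinks collagen and elastin, went from 517, 603 and 572 to 192, 166 and 148 CPM (log2 change -1.74, SE 0.17), the prolyl hydroxylase P4ha3 changed by -1.79 (SE 0.10) and the lysyl hydroxylase Plod2 by -1.52 (SE 0.14). Col1a1 itself went from 8483, 9513 and 8275 to 4792, 4517 and 4243 CPM (log2 change -0.95, SE 0.09). Eln, the gene of elastin, fell from 2723, 3103 and 2665 to 946, 841 and 794 CPM (log2 change -1.72, SE 0.13), and Fbln5, Thbs1 and Nid1, which organise elastic fibres, cell contacts and basement membranes, changed by -1.98, -1.78 and -1.76 on the log2 scale. All 6 libraries kept to the side of their group in each of these genes. Collagens with their crosslinking enzymes summed to 2.51% to 2.65% of counts with vehicle and 1.47% to 1.60% with 915. The tested fibroblast markers fell in 8 of 12 cases and rose in 1 (Dcn), and those of smooth muscle and pericytes fell in 8 and rose in 1 (Kcnj8). Col1a1, Col1a2 and Col3a1 are in both the collagen list and the fibroblast markers, as Postn, Mfap5, Dcn and Lum are in both the matricellular list and those markers. The part of these cells in the matrix result was not tested.

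In TGF-beta and BMP signalling 27 of 38 genes fell and 3 rose (Tgfbr3, Bambi and Bmp7). The ligand gene Tgfb3 went from 382, 424 and 398 to 146, 124 and 117 CPM (log2 change -1.64, SE 0.07) and the BMP antagonist Grem1 from 105, 100.2 and 96.9 to 35.2, 30.7 and 25.9 CPM (log2 change -1.73, SE 0.08). Growth factors and their receptors, in a list built around VEGF and the angiopoietins, had 31 of 45 members lower and 4 higher. Figf, the gene of VEGF-D, fell by 2.00 (SE 0.09) on the log2 scale. Vegfc changed by -1.87 (log2, SE 0.11) and Nrg1, a neuregulin that myocytes answer to, by -1.57 (SE 0.11). Vegfa, the main angiogenic factor, rose instead, from 508, 459 and 504 to 1023, 1039.9 and 1050.2 CPM (log2 change 1.08, SE 0.06). In Wnt, Notch and Hedgehog signalling 20 of 39 fell and 2 rose, with the Notch ligand Jag1 going from 194, 206 and 188 to 57.8, 48.4 and 48.0 CPM (log2 change -1.93, SE 0.08) and the Wnt receptor Fzd4 changing by -1.17 (SE 0.08). In the same libraries the summed fibroblast markers went from 13896 to 14965 to 7680.1 to 8449.6 CPM and those of smooth muscle and pericytes from 5761 to 6074 to 2455 to 2941 CPM, and their part in the falls of these signalling genes was not tested.

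Sterol genes moved in opposite directions on their 2 arms. Of 27 genes of cholesterol synthesis and uptake 18 fell and 1 rose, the sterol sensor partner Scap (median -0.53). Idi1, an isomerase of sterol synthesis (ENSRNOG00000016690, chromosome 17, 57976268 to 57984036), went from 35.1, 34.4 and 35.9 to 11.2, 10.3 and 9.86 CPM (log2 change -1.75, SE 0.11). Of 11 genes of LXR, the sensor of excess sterol, and its targets, with the receptor genes Nr1h2 and Nr1h3 among them, 8 rose and 1 fell (Lpcat3). Abcg1, which exports cholesterol, went from 21.7, 22.1 and 20.7 to 52.7, 59.5 and 57.0 CPM (log2 change 1.39, SE 0.08), and Apoe, Srebf1 and Abca1 rose by 0.70, 0.60 and 0.57 on the log2 scale.

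Stress and detoxification programmes rose in part. Of 27 genes of NRF2 (Nfe2l2), its regulation and its targets 18 rose and 4 fell. Gsta4, a glutathione transferase, went from 29.1, 26.3 and 28.3 to 66.3, 59.1 and 69.6 CPM (log2 change 1.22, SE 0.09) and Srxn1 from 70.2, 79.8 and 67.6 to 156, 139.6 and 143 CPM (log2 change 1.01, SE 0.06), while Nqo1, a classical member, fell by 0.45 (SE 0.07) on the log2 scale. Of 38 genes of the integrated stress response and amino acid synthesis 22 rose and 4 fell, among the rises Gdf15, a secreted stress signal (215, 227 and 207 against 494, 485 and 451 CPM), and Trib3 (log2 change 1.02, SE 0.12). Of 23 genes of iron and copper handling 10 rose and 4 fell (median 0.10). Rises were seen in Ftl1, the ferritin light chain (1549, 1690.2 and 1638 against 2927, 2723 and 2714 CPM, log2 change 0.78, SE 0.05), and in Steap3, a ferric reductase (log2 change 1.13, SE 0.09). Of 23 metallothionein and zinc genes 9 rose and 3 fell. The zinc exporter Slc30a1, which responds to the same metal sensor as the metallothioneins, rose by 0.34 (SE 0.06), and the importer Slc39a10 fell by 0.67 (SE 0.10) on the log2 scale. The sensor's own gene Mtf1 did not pass (1.12, 1.77 and 2.02 against 0.925, 0.764 and 0.907 CPM). The annotation holds 2 entries of Mt1, so the split of reads between its copies is uncertain. Of 9 genes of the aryl hydrocarbon receptor, its partner Arnt and its targets 5 fell and 1 rose (Nfe2l2), with Cyp1b1 going from 77.2, 78.3 and 78.4 to 18.1, 20.6 and 17.7 CPM (log2 change -2.05, SE 0.09).

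Growth and division went apart. Cytosolic ribosomal proteins rose in 43 of 48 cases and none fell, by edgeR or DESeq2 and with none lower at an unadjusted p below 0.05 (median 0.40). Cell cycle genes fell in 19 of 39 cases and rose in 2 (Pcna and Ccne1). Ccnd1, cyclin D1, went from 141, 138 and 144 to 69.7, 68.6 and 75.2 CPM (log2 change -0.98, SE 0.06), and most mitotic genes were at low levels, such as Cdk1 at 8.05, 7.85 and 6.91 and 4.03, 3.88 and 3.91 CPM. The cell cycle count was 9 without replicate 3 of 915 and 12 without vehicle replicate 2. Hypoxia targets were mixed, with 12 of 26 higher and 5 lower: Car9, a carbonic anhydrase, went from 24.1, 25.1 and 20.7 to 5.62, 6.70 and 5.10 CPM and fell by 2.00 (SE 0.14) on the log2 scale. The immediate early and MAP kinase feedback genes had 10 of 35 higher and 10 lower, among them Nr4a1 at 1.03 (log2, SE 0.06) and Myc at 0.92 (SE 0.08).

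The same contrast in knockdown cells showed which of these responses differed when ERR alpha and ERR gamma were low. The difference between the 2 effects passed for 3.73% of the 15181 genes. Of the contractile and stress lists, 5 of 19 thin filament genes, 9 of 27 Z disc genes and 9 of 28 natriuretic and stress genes differed. These lists share members. Xirp2 and Ankrd1 are in both the Z disc and the natriuretic lists, and Acta1 is in both the thin filament and the natriuretic lists. Their counts are therefore not separate evidence. Xirp2 changed by 1.85 in scramble and by 0.41 in knockdown cells (difference 1.44), Actc1 by 0.77 and -0.11 (difference 0.88), Ankrd1 by 0.83 and 0.04 (difference 0.79) and Perm1 by 0.92 and -0.03 (difference 0.95). In each of these 4 genes the rise was larger in scramble cells. Among fuel genes Hk2 and Oxct1 rose more in scramble cells (differences 0.89 and 0.91), and Angptl4, Ucp2, Lipe, Decr1 and Pdk4 fell further in scramble cells (differences -1.03, -0.82, -1.20, -0.75 and -0.86).

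Of other lists, 7 of 24 PPAR targets, 8 of 30 genes of glucose uptake and glycolysis and 4 of 17 of beta-oxidation had a difference. So had 6 of 29 SRF targets, 6 of 28 cardiac transcription factors and 5 of 24 heat shock genes. Some members are counted in several lists, such as Cryab (heat shock and Z disc) and Decr1 (PPAR targets and beta-oxidation). The respiratory complexes had 4 members with a difference, among them Ndufs1 of complex I, Uqcrc2 of complex III and Cycs, which encodes cytochrome c. The mitochondrial ribosome had 3 of 62 (mrpl9, Mrpl18 and Mrpl47), the cytosolic ribosome none of 48 and the mitochondrial genome none of 13. Of the 46 interferon genes 5 differed, namely Bst2 (difference -1.11), Psmb9, B2m, Irf1 and Trim25, and the list's median was -0.65 in knockdown cells. Of the large rises, Hamp and Klhl40 changed by 2.26 and 1.90 in knockdown cells, and their differences of -0.08 and 0.22 did not pass (adjusted p = 0.867 and 0.588), which does not show that the effects were equal. The count of genes with a difference depended on single libraries: it was 566 with all libraries, 259 without replicate 3 of 915 and 321 without vehicle replicate 2.

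**Figure D5:**
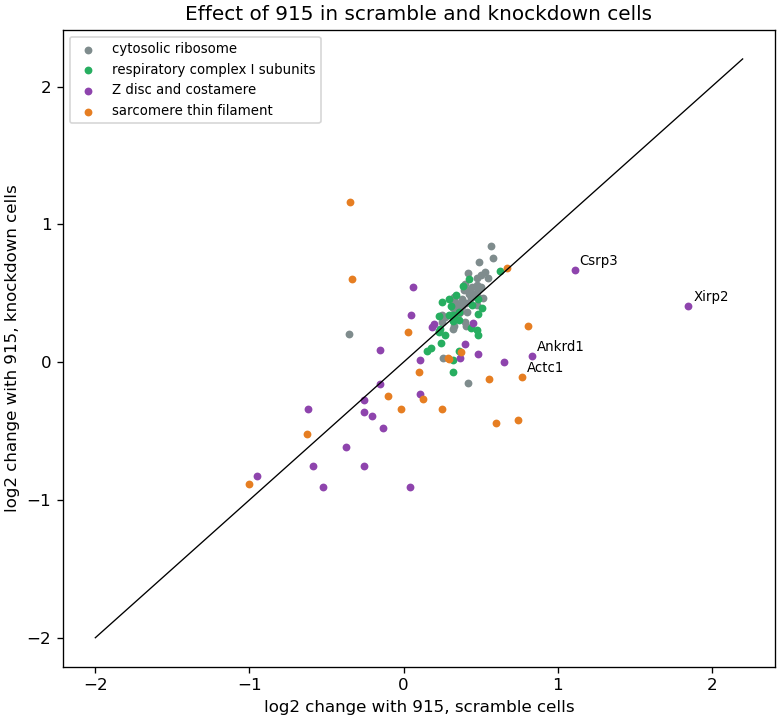
Log2 change of 915 in knockdown cells (vertical axis) against that in scramble cells (horizontal axis) for genes of 4 lists, with the line of equal change. Xirp2, Actc1 and Ankrd1 lie below the line, with a larger rise in scramble cells.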

How the data were processed

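The 6 scramble libraries came from an unstranded, poly(A)-selected protocol per the labels' protocols, so reads of a gene and of an overlapping or antisense partner cannot be told apart. The deposited table holds raw read counts per gene, and the authors' FPKM values beside them, used only to compare levels between genes. HISAT2 2.0.5, StringTie 1.3.3b, featureCounts 1.5.0-p3, DESeq2 1.20.0 and the rn6 build are named in the submitters' processing notes; which step made which column is not given in the sources used here. Coordinates are those of the deposited table, and each span is the whole gene.

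Counts of all 12 rat libraries, as 4 groups of 3, were fitted with edgeR 4.0.16 in R 4.3.3 (TMM scaling, factors from 0.954 to 1.06, filterByExpr with a minimum count of 10, robust quasi-likelihood F-test, Benjamini-Hochberg adjustment over 15181 genes, threshold 0.05). SE is the size of the log2 change divided by the square root of F. The table lists 32545 genes, of which 10762 had no count in the 6 libraries. The fit was tested on simulated counts with 200 changed genes. It recovered 80.9% of 110 genes with a true log2 change of 1 and 67.8% of 90 with 0.5. Of its 160 calls 10 were false. Far fewer genes were changed there than the 6400 called in the data, which makes the adjusted threshold stricter. These shares therefore do not carry over to the data. A gene that did not pass may still have changed. The members and the gene lists were chosen with earlier results of these data known.

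Genes were named by these rules: the 15 largest rises and falls among genes that average 5 CPM or more and whose groups do not overlap, the 10 largest gains and losses in CPM, up to 4 called members of each list with the largest change and up to 2 with the highest level, all members of 4 lists (receptors and coactivators, mitochondrially encoded subunits, carnitine shuttle, metallothioneins and zinc transport), and a fixed set of 10 genes. A last rule took the 5 largest differences from knockdown cells in each direction, only among the 15 largest rises and 15 largest falls. Aldoc, Arnt, Bambi, Bmp7, Ccne1, Cnn1, Col1a2, Cxcl10, Cycs, Dcn, Dlat, Dld, Eif2ak2, Fhl1, Hspb1, Hspb2, Hspb3, Irf1, Irf7, Isg15, Itga9, Itgb8, Kcnj8, Lama5, Loxl4, Lpcat3, Lum, Mfap5, Mpc2, Mrpl18, Nfs1, Nr1h2, Nt5e, Oasl, Pcna, Pdhb, Pdhx, Pdk1, Pdk2, Pdk3, Pdp2, Pdpr, Psmb9, Rsad2, Scap, Spg7, Spp1, Tgfbr3, Trim25, Ucp2, Uqcrc2, mrpl9, Cldn5, Cd3e and Hbb-b1 were chosen after their values were seen.

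Alternatives were RLE size factors, no filter on low counts, a minimum count of 50, DESeq2 1.42.0, the 6 scramble libraries alone, the replicate number as a block, each scramble library left out in turn, and, for the mitochondrial share, counts outside the mitochondrial genome as the denominator. Sequences were not used here, and a few genes that the rules name are not reported here.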

Additional observations from a re-analysis of the deposited data

Results flagged for a closer look

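For the genes below the effect of 915 in scramble cells differed from its effect in knockdown cells, by the edgeR test of the difference at an adjusted p below 0.05. The value in brackets is the log2 effect in scramble cells minus that in knockdown cells, and no cause was tested. With replicate 3 of 915 left out the number of such genes over all genes tested was 259, against 566 with all libraries. Contractile and Z disc genes with a log2 effect above that in knockdown cells were Xirp2 (1.44), Ankrd1 (0.79), Actc1 (0.88), Acta1 (0.54) and Mybpc3 (0.75). The effect was also above it for Tpm1 (0.32), Fhl1 (0.69) and Pln (0.52). Small heat shock genes with a log2 effect above that in knockdown cells were Hspb8 (0.46), Hspb7 (0.65) and Cryab (0.27). Receptors and coactivators with a log2 effect above that in knockdown cells were Esrrg (0.88), Perm1 (0.95) and Ppargc1b (0.60). Esrrg is itself a target of the siRNA in knockdown cells, and the part of this in its difference was not tested. Genes of fuel use and energy transfer with a log2 effect above that in knockdown cells were Hk2 (0.89), Oxct1 (0.91), Pdp1 (0.81), Idh2 (0.44) and Slc6a8 (0.51). The effect was also above it for Slc25a5 (0.49) and Mrpl47 (0.54). The effect was below it for Pdk4 (-0.86), Angptl4 (-1.03), Ucp2 (-0.82) and Ucp3 (-1.99). So it was for Lipe (-1.20) and Decr1 (-0.75). Among hormone, load and channel genes the effect was above that in knockdown cells for Nppb (1.53) and below it for Ednra (-0.43), Agtr1a (-0.95) and Rgs4 (-0.54). Transcription factors with a log2 effect above that in knockdown cells were Hopx (0.62) and Srf (0.30). It was below for Nr2f2 (-0.47). Secreted signals, their receptors and matrix genes with a log2 effect above that in knockdown cells were Bambi (0.35), Spp1 (1.43), Loxl4 (0.58), Itga9 (0.52) and Nt5e (1.01). Below it were Tgfb3 (-0.38), Grem1 (-0.43), Cyr61 (-0.38), Figf (-0.46) and Fzd4 (-0.39). Interferon-stimulated genes with a log2 effect below that in knockdown cells were Bst2 (-1.11), Psmb9 (-0.78) and B2m (-0.38). Stress and detoxification genes with a log2 effect above that in knockdown cells were Gsta4 (0.63), Gstk1 (1.14) and Srxn1 (0.46). Genes of low level that rose more in scramble cells were Cdh17 (1.19) and Nmrk2 (1.31). Of the other members with a difference, the effect was above that in knockdown cells for Cycs (0.31), Mrpl18 (0.47), Ndufs1 (0.39), Uqcrc2 (0.26) and mrpl9 (0.38), and below it for Car9 (-0.74), Cnn1 (-0.35), Irf1 (-0.37) and Trim25 (-0.37).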

How the results depend on the processing

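The count of genes changed by 915 was 6400, and over the alternatives with all 12 rat libraries it ran from 6250 to 6426 (6366 with DESeq2), and it was 6624 with the 6 scramble libraries alone. With each library left out in turn it ran from 5536 to 5896, and between 84.1% and 98.8% of the calls were also made under each alternative. The count of genes at least 2-fold higher was 133 with a minimum count of 50, against 212, a setting that tests fewer genes of low level. The count of genes whose effect differed from that in knockdown cells ran from 259 to 443 with each scramble library left out, against 566. It was 259 without replicate 3 of 915 and 321 without vehicle replicate 2; fewer samples were fitted there, and the cause was not tested further. It was 760 with DESeq2 and 726 with no filter on low counts.

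With the replicate block 6276 genes were called, 3206 higher and 3070 lower, and 542 differed from knockdown cells. The correlation of deviations between same-numbered scramble libraries ran from -0.053 to 0.015, so no variation shared by replicate number was seen. So few pairs cannot show whether same-numbered libraries had a common origin. Over 224 entries of named genes, no gene called in the main fit changed direction under any alternative. Of the 2686 values of these entries over the alternatives, 12 changed direction, all in genes not called in the main fit. Of the entries, 14 lost their call under at least 1 alternative (Aldoc, Bmp7, Ccne1, Cycs, Itgb8, Lpcat3, Mfap5, Mt-co1, Nfe2l2, Nfs1, Plin4, Spg7, Tgfbr3 and Uqcrc2) and 9 gained one (Cpt1b, Dlat, Esrra, Hspb2, Hspb3, Lum, Mb, Myh6 and Rsad2). Of 1656 list counts over the alternatives 72 moved by more than 1.5 times. The difference in mitochondrial share, 1.52 percentage points, ran from 1.28 to 1.81 with each library left out and was 1.75 against counts outside the mitochondrial genome. Totals of 15711947 to 18315341 counts limit the precision of genes under 1 CPM, where 38 of 1485 rose and 80 fell.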
